A study of Rattus norvegicus with 16 samples.

Results

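The lipases and lipase cofactors that clear triglyceride from plasma and release it from stored droplets were followed by RNA sequencing in epididymal fat and liver of obese rats. They are the 9 genes Lpl, Gpihbp1, Lmf1, Angptl4, Lipc, Lipg, Lipe, Mgll and Lipa, picked by symbol for their known roles with earlier results of these data known, and all 9 are among the 22517 gene symbols listed. The animals were 8 male Zucker diabetic fatty rats (ZDF/GmiCrl-fa/fa), which carry the fa mutation of the leptin receptor in every group and become obese and diabetic. They were bought at 7 weeks of age and kept for 2 weeks with free access to Purina 5008 feed. From 9 to 11 weeks of age, for 2 weeks, they ate Purina 5008 feed with R-α-lipoic acid (LA) or were pair-fed (PF) the same feed without it. In both groups the feed was handed out between 1 and 3 pm in rations meant for 2 days. The labels give no dose of R-α-lipoic acid and include no lean rats and no rats fed freely. The 4 groups are LA fat, PF fat, LA liver and PF liver, with 4 biological replicates each, 16 libraries in all.

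Triglyceride in plasma lipoproteins is cut at the capillary wall by lipoprotein lipase. The enzyme is folded with the help of LMF1, carried across the endothelium and held there by GPIHBP1, and inhibited by ANGPTL4. Hepatic lipase and endothelial lipase are related enzymes of the same surface. Inside fat cells, stored triglyceride is taken apart in steps by adipose triglyceride lipase (Pnpla2), hormone-sensitive lipase (Lipe) and monoglyceride lipase (Mgll), while lysosomal acid lipase (Lipa) works on lipid delivered to lysosomes. White fat is a main site of lipoprotein lipase and hormone-sensitive lipase, and liver is the main site of hepatic lipase.

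Promoter windows are shown for 3 members with unlike tissue patterns: Lipc, high in liver, Mgll, higher in fat, and Angptl4, present in both. Each runs from 250 bases before to 50 after a start site, 5′ to 3′ on the gene's strand, from RefSeq on GRCr8, and 6 of the 9 members had an entry. The start site of the Mgll window is the first base of the annotated gene, whereas those of the Lipc and Angptl4 windows lie 178 and 1290 bases inside it, and distances are counted from the start site of the window. Capitals mark matches to GTTAATNAT (a core of the HNF1 motif) or CAAAGGTCA (a core of the HNF4 motif) in Lipc, and to TATAAA in Angptl4, each searched on both strands. The build behind the expression values is not given in the sources used here.
Lipc, chr8:80516236-80516535, minus strand: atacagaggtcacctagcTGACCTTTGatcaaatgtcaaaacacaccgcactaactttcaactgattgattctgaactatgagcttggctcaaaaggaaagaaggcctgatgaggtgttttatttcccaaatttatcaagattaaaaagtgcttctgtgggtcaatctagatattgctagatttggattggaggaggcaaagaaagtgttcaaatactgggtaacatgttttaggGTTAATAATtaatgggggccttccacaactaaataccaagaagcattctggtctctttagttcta
Angptl4, chr7:15258632-15258931, minus strand: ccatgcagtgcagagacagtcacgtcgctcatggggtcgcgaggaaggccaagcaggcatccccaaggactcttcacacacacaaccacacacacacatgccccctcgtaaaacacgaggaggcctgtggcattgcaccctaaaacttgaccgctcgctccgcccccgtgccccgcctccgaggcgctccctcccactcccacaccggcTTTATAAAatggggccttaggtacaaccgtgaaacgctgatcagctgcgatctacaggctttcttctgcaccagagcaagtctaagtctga
Mgll, chr4:122749186-122749485, plus strand: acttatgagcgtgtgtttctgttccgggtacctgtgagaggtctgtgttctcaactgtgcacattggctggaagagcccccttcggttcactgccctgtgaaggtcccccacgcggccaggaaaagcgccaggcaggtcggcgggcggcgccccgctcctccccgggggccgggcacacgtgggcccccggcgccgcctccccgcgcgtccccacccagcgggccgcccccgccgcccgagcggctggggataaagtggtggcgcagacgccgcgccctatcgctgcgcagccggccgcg

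The Lipc window held a match to GTTAATNAT at 15 bases before the start and a match to CAAAGGTCA, on the opposite strand, at 232 bases before it. Of the 33469 promoter windows of that length, 0.747% held the HNF1 letters and 0.424% the HNF4 letters. The Lipc window was 38% G and C with 1 CpG, and 5.47% of windows had fewer CpGs. The Angptl4 window was 58.3% G and C with 17 CpGs. It held TATAAA at 39 bases before the start, overlapping a match on the opposite strand, and 14.2% of windows held TATAAA. The Mgll window was 72.3% G and C with 35 CpGs, more than 93.9% of windows had, and none of the 3 motifs was found in it. A match describes letters and does not show that a factor binds there.

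Levels are in FPKM, a fragment number divided by the length of the transcript and by the mapped total of the library, so levels can be set side by side between genes. Between 11276 and 11480 genes reached 1 FPKM in the fat libraries, and between 9522 and 9738 in the liver libraries. Read totals are unknown, but low values step by what 1 fragment is worth, and that worth, relative to PF liver replicate 1, was 0.739 to 0.866 in LA fat, 0.774 to 0.961 in PF fat, 0.722 to 0.894 in LA liver and 0.853 to 1 in PF liver. A smaller worth means a deeper library. The tissue labels were checked by marker genes. The 10 adipocyte markers summed to 46924 to 55153 FPKM in LA fat and 43580 to 49691 FPKM in PF fat, against 57.5 to 70.9 FPKM in liver, where Adipoq, Lep, Plin (perilipin 1), Retn and Adrb3 were listed at 0 in all 8 libraries. The 11 hepatocyte markers summed to 34117 to 41839 FPKM in LA liver and 44363 to 54773 FPKM in PF liver. In fat their sum was 40.5 to 363 FPKM under LA and 177 to 413 FPKM under PF. Markers of epididymal and testicular cells summed to 9.81 FPKM in PF fat replicate 4, nearly all of it from Lcn5 (9.61 FPKM). In the other fat libraries they summed to 0 to 0.580 FPKM. In whole tissue, fewer cells of a type and less RNA per cell cannot be told apart.

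Apart from Lipg, the 9 genes fell into 3 patterns across the tissues. Lpl, Gpihbp1, Lipe and Mgll were far higher in fat. Lipc was far higher in liver. Lmf1, Angptl4 and Lipa were present at similar orders of magnitude in both, and Lipg was near 0 throughout. Of the 8 members tested in LA rats, 5 were called higher and 1 lower in fat than in liver. In PF rats 5 were called higher and 2 lower. Lpl and Gpihbp1 passed the filter on low values only through the fat libraries, as did Lipe in PF rats, so their direction was fixed by that choice. A call between tissues needed an adjusted p under 0.05 and a difference over 1 on the log2(FPKM + 1) scale, tested with limma and Benjamini-Hochberg adjustment over all genes. By that rule 46.4% of 11568 genes differed between tissues in LA rats (36.0% higher in fat and 10.5% lower). In PF rats 47.4% of 11492 genes did (36.3% higher and 11.1% lower). The member medians were 2.41 in LA rats and 2.75 in PF rats, and the medians over all genes tested were 0.65 and 0.66.

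**Figure D1:**
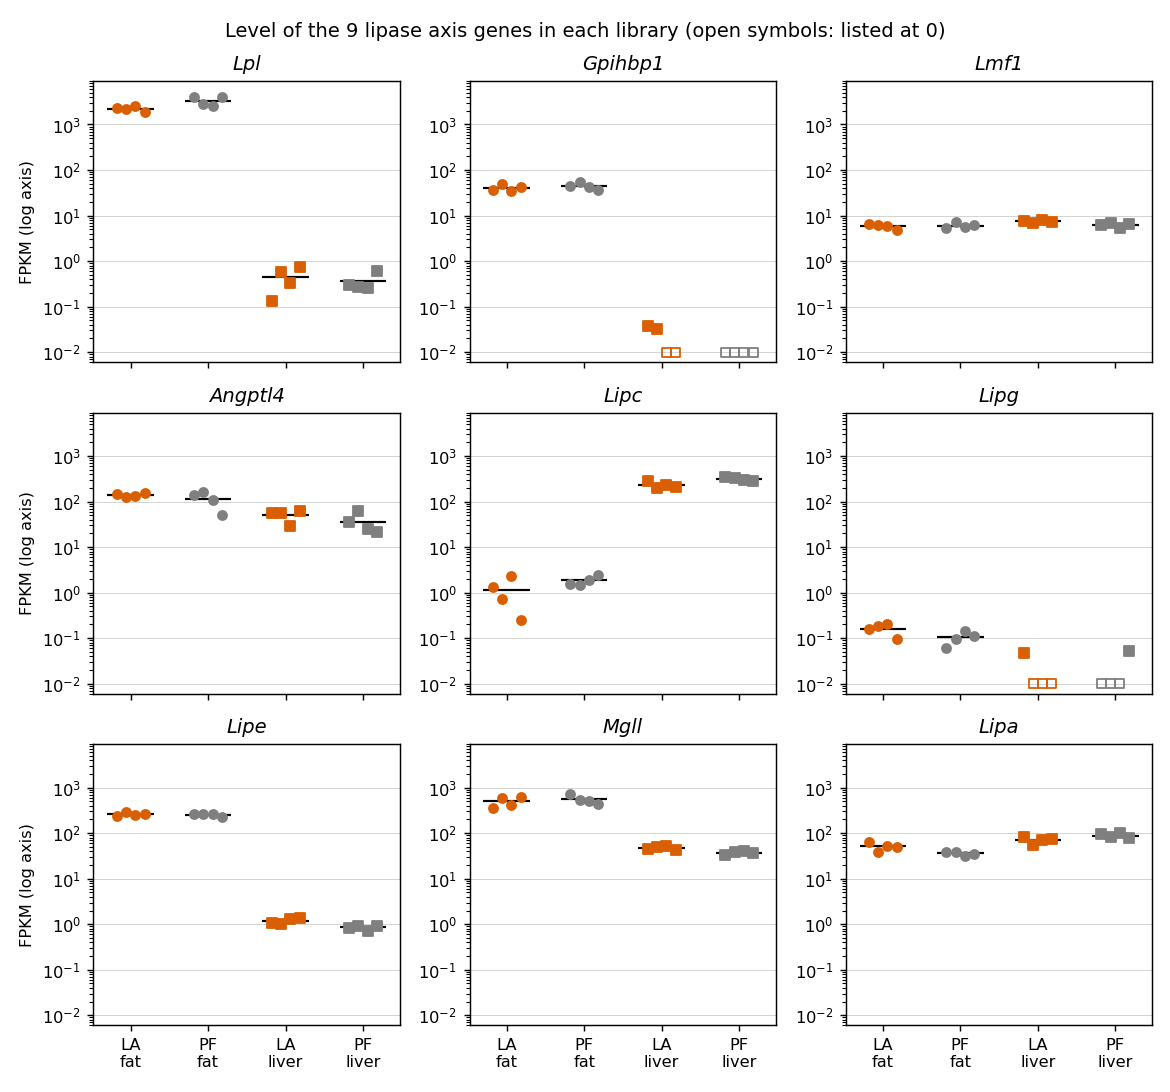
Level of each of the 9 genes in FPKM on a log axis, 1 point per library, with LA fat, PF fat, LA liver and PF liver from left to right; bars are means of 4 libraries where none is listed at 0, and open symbols stand for a value listed at 0. Lpl, Gpihbp1, Lipe and Mgll sit higher in fat, Lipc sits higher in liver, and Lmf1 and Lipa lie within one power of 10 across all 16 libraries.

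Lpl encodes lipoprotein lipase, which adipocytes make and secrete. Its level was 2339, 2171, 2562 and 1840 FPKM in LA fat, against 3915, 2867, 2582 and 4005 FPKM in PF fat. All 4 LA libraries lay below all 4 PF libraries, although LA replicate 3 and PF replicate 3 were nearly level. The means were 2228 ± 304 FPKM in LA fat and 3342 ± 723 FPKM in PF fat (SD, n = 4 each), an LA level 0.667 times that of PF. On the log2 scale the difference was -0.57 (SE 0.18, 95% interval -0.97 to -0.16), with an unadjusted p of 0.0108 and an adjusted p of 1 over all genes by limma, so it was not called. The diet contrast in fat called 0.0174% of 11501 genes, 2 in all, and 451 genes had an unadjusted p under 0.05. Groups that did not overlap were found for 2.08% of genes in fat, and Lpl was the only one of the 8 members tested there.

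In liver Lpl was listed at 0.136, 0.584, 0.328 and 0.725 FPKM under LA and 0.303, 0.273, 0.263 and 0.595 FPKM under PF. These values correspond to 5, 24, 15 and 31 fragments in LA liver and 10, 9, 10 and 23 fragments in PF liver, by the steps between low values. They lay below the 1 FPKM needed for a test of diet in liver. Lpl was 5026 times higher in fat than in liver in LA rats and 9317 times higher in PF rats, as ratios of mean FPKM. The differences on the log2(FPKM + 1) scale were 10.60 (SE 0.15) under LA and 11.25 (SE 0.15) under PF. Their adjusted p values were 3.4e-12 and 5.79e-13 by limma. Lpl passed the filter only through the fat libraries, so these p values are no support for the direction. The diet difference in fat minus that in liver was -0.64 (SE 0.22, adjusted p = 0.351).

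Gpihbp1 encodes the capillary protein that carries lipoprotein lipase to the vessel lumen. It measured 35.7, 48.4, 34.0 and 42.1 FPKM in LA fat and 45.3, 56.0, 41.7 and 35.9 FPKM in PF fat, and these ranges overlapped. The diet difference was -0.15 (95% interval -0.49 to 0.19, adjusted p = 1 by limma). In liver it was listed at 0.0367, 0.0330, 0 and 0 FPKM under LA and at 0 in all 4 PF libraries. The 2 values above 0 are equal once scaled for depth and were taken as 1 fragment each. With only 2 such values, the number of fragments behind them is not settled. It was called higher in fat under both diets, a direction fixed by a filter that it passed only through the fat libraries. No ratio is given against values at 0. The endothelial marker sum was 249, 312, 254 and 304 FPKM in LA fat and 308, 312, 308 and 255 FPKM in PF fat, and 58.0 to 67.9 FPKM in liver. Liver thus held endothelial transcripts while Gpihbp1 was at or near 0.

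Lmf1 encodes the endoplasmic reticulum chaperone that lipoprotein lipase, hepatic lipase and endothelial lipase need to fold. Its level was of the same order in both tissues, at 5.80 ± 0.723 FPKM in LA fat, 6.02 ± 0.903 FPKM in PF fat, 7.46 ± 0.523 FPKM in LA liver and 6.23 ± 0.638 FPKM in PF liver (SD, n = 4 each). The libraries read 6.37, 6.07, 6.04 and 4.74 FPKM in LA fat and 5.22, 7.26, 5.52 and 6.09 FPKM in PF fat. In liver they read 7.74, 6.87, 8.03 and 7.19 FPKM under LA and 6.06, 6.86, 5.41 and 6.58 FPKM under PF. The lowest LA liver library lay just above the highest PF liver library, and the difference of 0.23 was not called (SE 0.09, 95% interval 0.04 to 0.42, adjusted p = 0.17 by limma). In fat the diet difference was -0.04 with overlapping groups. Between tissues Lmf1 differed by -0.32 in LA rats (adjusted p = 0.0128), short of the size needed for a call, and by -0.05 in PF rats (adjusted p = 0.716).

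Angptl4 encodes a secreted inhibitor of lipoprotein lipase that fasting and fatty acids induce. It measured 146, 126, 134 and 155 FPKM in LA fat and 142, 159, 106 and 51.0 FPKM in PF fat. The LA libraries lay close together and inside the range of the PF libraries, of which replicate 4 was the lowest. Its diet difference in fat was 0.41 (95% interval -0.27 to 1.08, adjusted p = 1 by limma). In liver the values were 55.7, 54.9, 29.8 and 63.4 FPKM under LA and 36.04, 62.0, 24.5 and 21.0 FPKM under PF, with a difference of 0.57 (95% interval -0.14 to 1.27, adjusted p = 0.359). Both intervals include 0 and differences over 1, so the spread of this gene leaves the diet comparison loose.

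Angptl4 was higher in fat than in liver by 1.49 in LA rats (adjusted p = 5.01e-05) and by 1.65 in PF rats (adjusted p = 0.00182, with overlapping libraries). With each library centred on its median these became 0.82 and 0.98, under the size needed for a call, since the median of all genes tested was itself higher in fat.

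**Figure D2:**
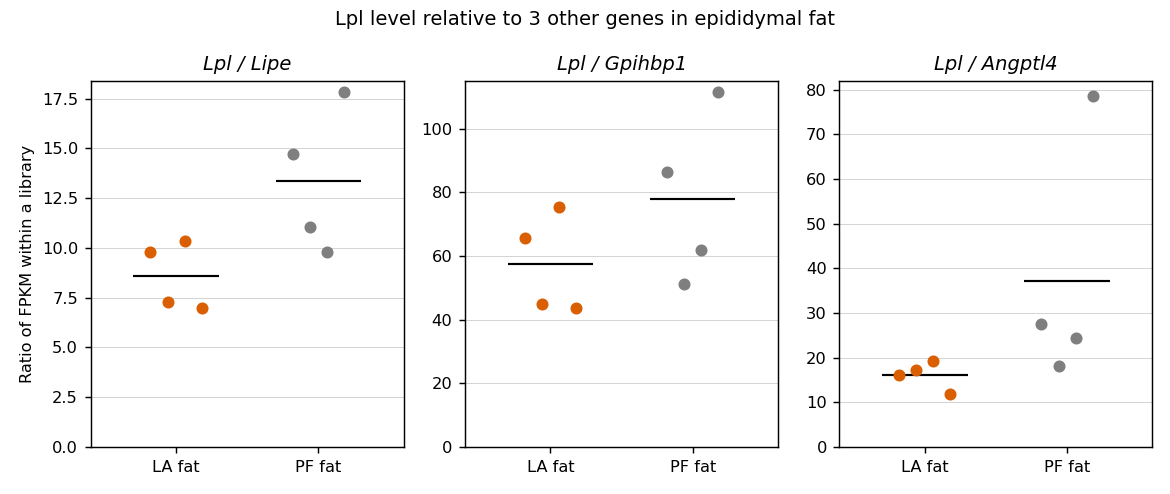
Ratio of the FPKM of Lpl to that of Lipe, Gpihbp1 and Angptl4 within each epididymal fat library, with LA on the left and PF on the right, each point 1 library and each bar the mean of 4. The mean ratio is lower in LA fat in each panel, and the LA and PF points overlap in all 3.

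Set against its inhibitor, Lpl was 11.9 to 19.2 times Angptl4 in LA fat and 18.0 to 78.6 times in PF fat, where replicate 4, with the highest Lpl and the lowest Angptl4, gave the highest ratio. Lpl was 57.4 ± 15.6 times Gpihbp1 in LA fat and 77.8 ± 27.0 times in PF fat (SD, n = 4 each). Lpl was 8.60 ± 1.71 times Lipe in LA fat and 13.4 ± 3.66 times in PF fat, with 6.98 to 10.3 in LA libraries against 9.80 to 17.8 in PF libraries. The Lpl transcript was thus several times more abundant than the Lipe transcript in every fat library. In liver the order was turned round, with Lpl 0.375 ± 0.219 times Lipe under LA and 0.417 ± 0.157 times under PF. These ratios are given as descriptions, with no test.

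Lipc encodes hepatic lipase, which hepatocytes secrete and which acts on lipoprotein remnants and high-density lipoprotein. It measured 287, 196, 229 and 207 FPKM in LA liver against 352, 326, 296 and 288 FPKM in PF liver. Every LA library lay below every PF library, with LA replicate 1 just under PF replicate 4. The means were 230 ± 40.7 FPKM in LA liver and 316 ± 29.1 FPKM in PF liver (SD, n = 4 each), an LA level 0.728 times that of PF. The log2 difference was -0.47 (SE 0.12, 95% interval -0.74 to -0.20, unadjusted p = 0.00298), and its adjusted p of 0.0568 by limma just missed the threshold. With 1 library left out at a time, Lipc was called only without LA liver replicate 1 (-0.58, adjusted p = 0.0148), and its adjusted p was 0.0657 to 0.153 in the other 7 fits. With all 16 libraries in one model it was 0.346. The hepatocyte marker sum was also lower in LA liver, with 10 of its 11 genes lower on the mean and no overlap of the sums given above. The part this has in the Lipc difference was not tested.

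In fat, Lipc stood at 1.33, 0.714, 2.29 and 0.258 FPKM under LA and 1.58, 1.496, 1.93 and 2.504 FPKM under PF. These values correspond to 27, 17, 48 and 6 fragments in LA fat and 29, 34, 43 and 49 fragments in PF fat. Lipc was 200 times higher in liver than in fat in LA rats and 168 times higher in PF rats. On the log2 scale fat minus liver was -6.82 under LA and -6.79 under PF, with adjusted p values of 1.8e-09 and 3.63e-12 by limma. Taken as a share of its liver mean under the same diet, Lipc in fat was 0.579%, 0.311%, 0.999% and 0.112% in the LA libraries, where the hepatocyte marker sum was 0.431%, 0.329%, 0.945% and 0.105%. In the PF libraries Lipc was 0.502%, 0.474%, 0.611% and 0.794%, and the marker sum was 0.528%, 0.369%, 0.445% and 0.863%. Lipc and the hepatocyte markers were thus highest and lowest in the same LA fat libraries, replicate 3 and replicate 4. The same held in PF fat, for replicate 4 and replicate 2. The other PF libraries went the other way, with Lipc higher in replicate 3 than in replicate 1 and the marker sum lower. The diet difference of Lipc in fat was -0.50 (95% interval -1.10 to 0.10, adjusted p = 1), and all 11 hepatocyte markers were lower on the mean in LA fat. The part of hepatocyte RNA in the Lipc values of fat was not tested.

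**Figure D3:**
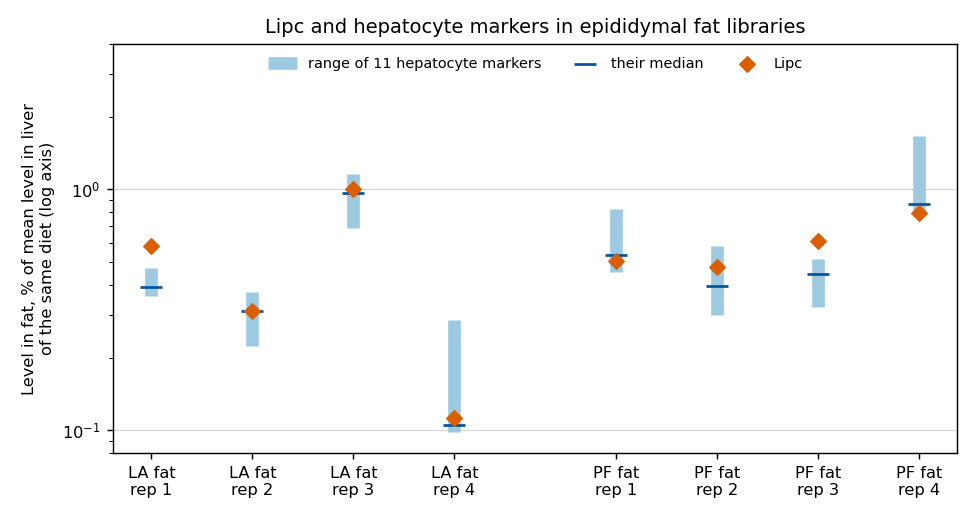
Lipc in each epididymal fat library as a percent of its mean in liver of the same diet (diamonds, log axis), beside the range (bars) and the median (dashes) of the same share for 11 hepatocyte markers, with LA libraries on the left. In 6 of the 8 libraries the Lipc share lies inside the range of the markers' shares; it lies above it in LA replicate 1 and PF replicate 3.

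Lipg encodes endothelial lipase, a phospholipase of the vessel wall that acts mainly on high-density lipoprotein. It was listed at 0.161, 0.184, 0.209 and 0.0939 FPKM in LA fat and 0.0597, 0.0963, 0.147 and 0.112 FPKM in PF fat, which are 2 to 4 fragments in LA libraries and 1 to 3 fragments in PF libraries. In liver a value above 0 appeared in LA replicate 1 (0.0481 FPKM) and PF replicate 4 (0.0530 FPKM), each worth about 1 fragment. Lipg passed the filter in no comparison. Fitted with no filter it differed between tissues by 0.20 in LA rats (adjusted p = 0.000991 by limma) and 0.12 in PF rats (adjusted p = 0.0098), both under the size needed for a call. Every fat library lay above every liver library of its diet in FPKM. However, PF fat replicate 1 (0.0597 FPKM) and PF liver replicate 4 (0.0530 FPKM) were each worth 1 fragment and differed only in depth. The unfiltered diet difference in fat was 0.07 (adjusted p = 0.999), and at 1 to 4 fragments a library a diet difference was not detectable.

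Lipe encodes hormone-sensitive lipase, which cuts diglyceride and cholesteryl ester at the lipid droplet after phosphorylation by protein kinase A. In fat its level was 239, 297, 248 and 264 FPKM under LA and 266, 260, 264 and 224 FPKM under PF. The groups overlapped, and the diet difference was 0.05 with a 95% interval of -0.18 to 0.28 (adjusted p = 1 by limma). In liver it was listed at 1.07, 1.00, 1.27 and 1.36 FPKM under LA and 0.833, 0.930, 0.722 and 0.919 FPKM under PF, which are 49, 51, 72 and 72 fragments against 34, 38, 34 and 44 fragments. The LA libraries all lay above the PF libraries, with a difference of 0.23 (SE 0.09, 95% interval 0.03 to 0.44, adjusted p = 0.19). Lipe passed the filter in liver only through the LA libraries, so this direction is no support for a difference. The 10 adipocyte markers summed to 60.4 to 70.9 FPKM in LA liver and 57.5 to 69.9 FPKM in PF liver, with 2 of them higher and 3 lower on the mean under LA and the other 5 listed at 0 in both. Of the 2 that were higher, Fabp4, a fatty acid binding protein, averaged 1.31 FPKM in LA liver and 0.557 FPKM in PF liver. Cidec, a droplet protein, averaged 57.9 FPKM in LA liver and 51.0 FPKM in PF liver. The 3 that were lower were Cfd (6.30 FPKM in LA liver and 9.77 FPKM in PF liver), Slc2a4 (0.0733 and 0.207) and Sncg (0.173 and 0.205). The part of adipocyte RNA in the Lipe values was not tested. Lipe was 223 times higher in fat than in liver in LA rats and 298 times higher in PF rats.

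Mgll encodes monoglyceride lipase, which releases the last fatty acid from glycerol and also degrades the endocannabinoid 2-arachidonoylglycerol. It measured 45.3, 49.2, 53.3 and 42.5 FPKM in LA liver against 32.5, 38.2, 40.3 and 35.9 FPKM in PF liver. All LA values lay above all PF values, with means of 47.6 ± 4.68 FPKM in LA liver and 36.7 ± 3.37 FPKM in PF liver (SD, n = 4 each). The difference was 0.36 (SE 0.09, 95% interval 0.16 to 0.57, unadjusted p = 0.0025), and the adjusted p was 0.0523 by limma. With 1 library left out at a time, Mgll was called only without LA liver replicate 4 (0.41, adjusted p = 0.0439), and its adjusted p was 0.0515 to 0.142 in the other 7 fits. With all 16 libraries in one model it was 0.351. Macrophage markers were higher in the same libraries, with 10 of 12 higher on the mean, none lower, and a sum of 167 to 226 FPKM in LA liver against 124 to 152 FPKM in PF liver. The part this has in the Mgll difference was not tested.

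In fat Mgll was more variable, at 364, 592, 418 and 629 FPKM under LA and 712, 547, 516 and 426 FPKM under PF. The groups overlapped and the diet difference was -0.15 (95% interval -0.62 to 0.32, adjusted p = 1). Mgll was 10.5 times higher in fat than in liver in LA rats and 15.0 times higher in PF rats. The difference between the diet effects of fat and liver was -0.51 (adjusted p = 0.606), so an unlike response of the tissues was not shown.

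Lipa encodes lysosomal acid lipase, which hydrolyses cholesteryl ester and triglyceride in lysosomes. It measured 65.4, 38.2, 53.5 and 48.9 FPKM in LA fat and 39.0, 38.1, 31.7 and 35.1 FPKM in PF fat. LA replicate 2 fell inside the PF range and the other three LA libraries lay above it. In liver the values were 80.9, 56.0, 69.5 and 72.9 FPKM under LA and 95.7, 80.6, 98.9 and 78.6 FPKM under PF. Here the LA values were mostly the lower ones, with overlap at LA replicate 1. The diet difference was 0.48 in fat (SE 0.15, 95% interval 0.14 to 0.82, unadjusted p = 0.0102, adjusted p = 1) and -0.34 in liver (95% interval -0.61 to -0.08, adjusted p = 0.141).

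The diet difference of Lipa in fat minus that in liver was 0.83 (SE 0.20, 95% interval 0.39 to 1.26). Its unadjusted p was 0.000934, the smallest among the members, and its adjusted p was 0.111 by limma, so it was not called. Of 12079 genes, 0.381% were called for this difference, and 0 of the 8 members tested, 3 of which had an unadjusted p under 0.05, beside 991 of the 12079 genes. Of 22 alternatives, Lipa was called in 1, without LA fat replicate 2 (0.96, adjusted p = 0.042), and its adjusted p was up to 0.239 in the others. Macrophage markers, cells rich in lysosomes, summed to 2491, 1246, 1652 and 1341 FPKM in LA fat and 1110, 1339, 890 and 1270 FPKM in PF fat. LA replicate 1 was highest for both Lipa and the marker sum, and LA replicate 2 was lowest of the LA libraries for both. PF replicate 3 was lowest of all 8 libraries for both. The other PF libraries did not keep the same order. Lipa was highest in PF replicate 1 (39.0 FPKM), where the marker sum was 1110 FPKM, and the sum was highest in PF replicate 2. In liver the marker sum was higher under LA while Lipa was lower on the mean. The part of macrophage RNA in the Lipa values was not tested. Lipa was called lower in fat than in liver in PF rats (-1.27, adjusted p = 5.77e-07), and in LA rats its difference was -0.45 (adjusted p = 0.026), under the size needed for a call.

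**Figure D4:**
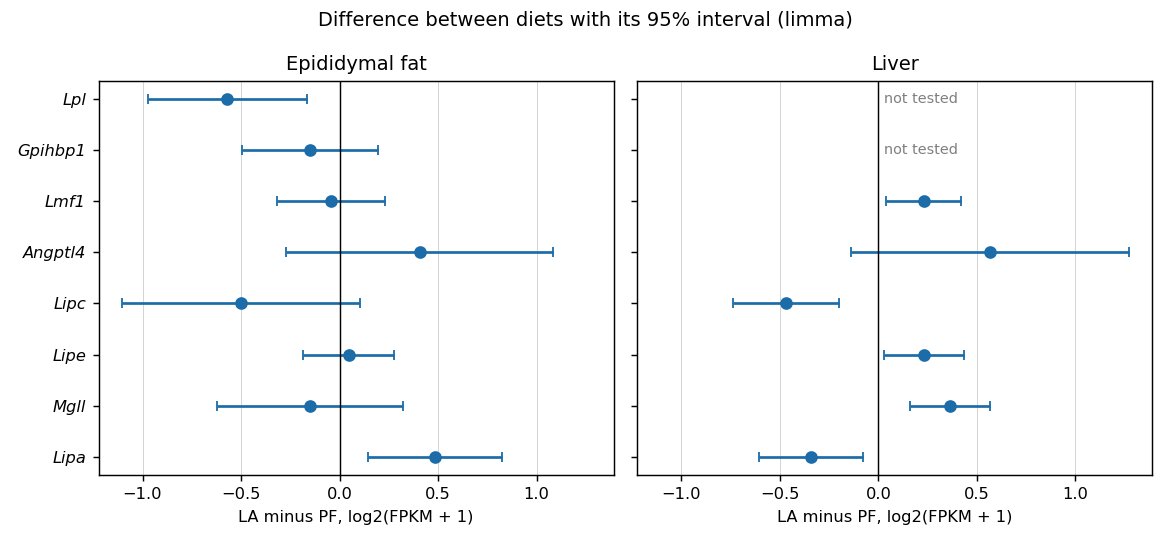
Difference between LA and PF on the log2(FPKM + 1) scale with its 95% interval from limma for the tested members, in epididymal fat on the left and liver on the right. In fat the intervals of Lpl and Lipa exclude 0, and in liver those of Lmf1, Lipc, Lipe, Mgll and Lipa do; none passed the adjusted threshold.

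Across the members, 0 of 6 tested were called between diets in liver and 0 of 8 in fat by limma. In liver the contrast called 4.48% of 9710 genes. Unadjusted p values under 0.05 were found for 5 of 6 members in liver, beside 1955 of the 9710 genes. In fat they were found for 2 of 8 members, beside 451 of 11501 genes. In liver 4 of the 6, Lmf1, Lipc, Lipe and Mgll, had groups that did not overlap, beside 12.3% of all genes, and 1 of those 4 passed the filter only through the LA libraries. The median member difference was 0.23 in liver and -0.10 in fat, beside all-gene medians near 0 in both. The same 4 PF libraries of a tissue serve every one of these diet comparisons, so the members' differences share them.

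Among the partners of these enzymes, 2 of 18 intracellular lipolysis genes and 1 of 15 plasma-side genes tested were called between diets in liver, beside 4.48% of all genes. Pnpla2 encodes adipose triglyceride lipase, which takes the first fatty acid from triglyceride, and Abhd5 encodes CGI-58, its coactivator. Pnpla2 measured 21.1, 22.5, 18.6 and 20.7 FPKM in LA liver against 15.9, 15.0, 11.5 and 14.5 FPKM in PF liver, a difference of 0.52 (SE 0.10, adjusted p = 0.0181 by limma). Abhd5 went the other way, at 15.6, 18.5, 19.3 and 18.1 FPKM in LA liver against 26.01, 22.6, 24.2 and 24.6 FPKM in PF liver, a difference of -0.43 (SE 0.08, adjusted p = 0.0146). Neither gene overlapped between diets. In the same LA liver libraries 10 of 11 hepatocyte markers were lower and 10 of 12 macrophage markers higher on the mean, and the part of either in the Pnpla2 and Abhd5 differences was not tested. Within a library the ratio of Pnpla2 to Abhd5 was 0.966 to 1.35 in LA liver and 0.474 to 0.662 in PF liver, and in fat it was 12.9 ± 1.03 under LA and 11.0 ± 1.12 under PF (SD, n = 4 each). The Pnpla2 call was lost without LA liver replicate 2 (adjusted p = 0.0629), and Abhd5 stayed called in all 8 fits that left out 1 library.

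Of the intracellular lipolysis list, 18 genes were tested in liver, of which Pnpla2 was called higher, Abhd5 lower and 16 were not called, with a median difference of 0.12. Among those, G0s2, an inhibitor of adipose triglyceride lipase, differed by 0.57 (adjusted p = 0.228) and Cidea, a droplet fusion protein, by 0.56 (adjusted p = 0.0746). In fat 0 of 24 genes of this list were called by limma, and 3 had an unadjusted p under 0.05, beside 451 of 11501 genes. One of those was Adrb3, the β-adrenergic receptor through which catecholamines switch on lipolysis in rodent fat. It measured 8.98, 15.7, 15.0 and 18.7 FPKM in LA fat against 23.4, 23.1, 29.1 and 20.2 FPKM in PF fat, with no overlap, a difference of -0.71 and an adjusted p of 1. Adfp, the droplet coat protein now called Plin2, measured 249, 127, 169 and 136 FPKM in LA fat and 120, 132, 94.2 and 107 FPKM in PF fat, with overlap and an adjusted p of 1.

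On the plasma side, 15 genes were tested in liver. Of these 0 were called higher, 1 lower and 14 were not called, with a median of -0.22. The gene called lower was Apoc2, the apolipoprotein that activates lipoprotein lipase. It measured 1884, 1710, 1812 and 2328 FPKM in LA liver against 2752, 2890, 2649 and 2572 FPKM in PF liver, with no overlap. The difference was -0.50 (SE 0.11, adjusted p = 0.0327 by limma), in libraries where the hepatocyte marker sum was also lower. Apoc2 was not called with no filter (adjusted p = 0.0988) or with all 16 libraries in one model (0.571). With 1 library left out at a time, it was called only without LA liver replicate 4, and its adjusted p was up to 0.0943 in the other 7 fits. In fat 0 of 14 genes of this list were called by limma, and 1 had an unadjusted p under 0.05, beside 451 of 11501 genes.

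**Figure D5:**
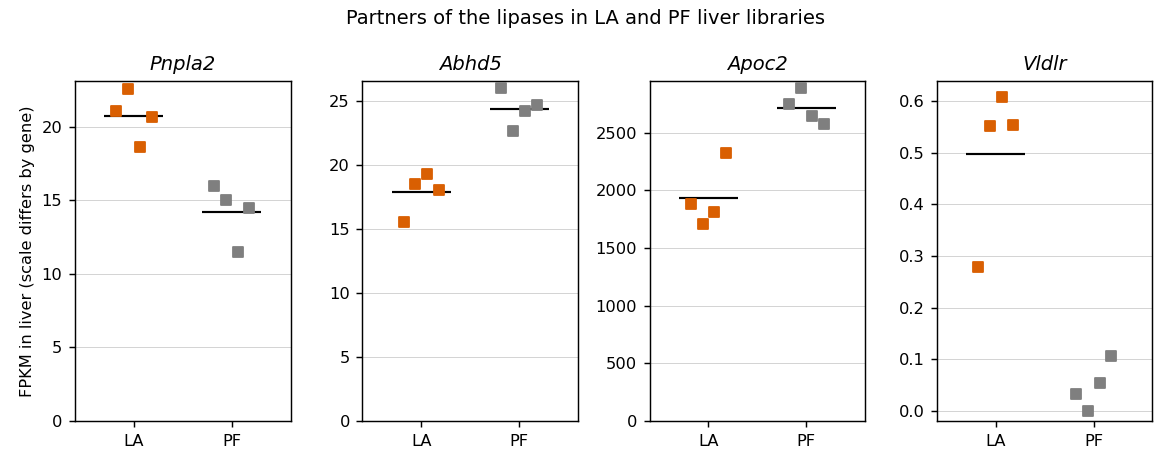
FPKM of 4 partner genes in liver, LA on the left and PF on the right of each panel, each point 1 library and each bar the mean of 4 libraries where none is listed at 0; the vertical scale differs by gene. Pnpla2 and Vldlr lie higher in LA liver, and Abhd5 and Apoc2 lie lower, with no overlap between diets in any panel.

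Vldlr, the very-low-density lipoprotein receptor, which brings triglyceride-rich particles to lipoprotein lipase, was listed at 0.279, 0.551, 0.609 and 0.554 FPKM in LA liver and at 0.0313, 0, 0.0542 and 0.107 FPKM in PF liver. All values were below the filter, so diet was not tested in liver alone. In fat it measured 15.7, 15.8, 15.0 and 16.6 FPKM under LA and 19.5, 16.5, 17.9 and 15.99 FPKM under PF. Its diet difference in fat minus that in liver was -0.65 (SE 0.12, adjusted p = 0.0362 by limma), the only call of this kind among the 16 plasma-side and 24 lipolysis genes tested. It was called in 3 of the 16 fits that left out 1 library (PF fat replicate 4, LA liver replicate 1 or PF liver replicate 4), with adjusted p values up to 0.0909 in the others.

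Of 10 lysosomal genes in liver 0 were called, none with an unadjusted p under 0.05, and of 11 in fat 0 were called, with 1 unadjusted p under 0.05. Of the 10 transcription factors listed for the lipase genes, 0 were called in either tissue by limma. Over all genes, unadjusted p values under 0.05 were found for 1955 of 9710 in liver and 451 of 11501 in fat. Of the listed factors, 2 had one in liver and 0 in fat. The 2 were Srebf1, a regulator of lipid synthesis, at -0.78 (adjusted p = 0.129), and Pparg, the adipocyte nuclear receptor that drives Lpl, at 0.29 (adjusted p = 0.215). Ppara, the nuclear receptor for fatty acids in liver, differed by -0.02 (95% interval -0.24 to 0.20).

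Between tissues the lipolysis list ran almost wholly one way. Of 24 genes tested, 20 were called higher and 0 lower in fat in LA rats, and 21 higher and 0 lower in PF rats. Over all genes 36.0% were higher and 10.5% lower in fat in LA rats, and 36.3% and 11.1% in PF rats. With libraries centred on their medians, 18 of the 24 were called higher in LA rats and 16 in PF rats, and 0 lower under either diet. Of these 24, 6 passed the filter only through the fat libraries under each diet, Plin and Adrb3 among them. Plin, Cidec, Fabp4 and Adrb3 are also adipocyte markers used above to check the tissue labels. The list was chosen with earlier results known and holds genes of fat cells, so its direction is no independent support. The list medians were 3.12 and 3.18, beside 0.65 and 0.66 over all genes. Pnpla2 was higher in fat by 5.22 in LA rats and 5.57 in PF rats, and Plin, perilipin 1, by 9.11 and 9.12. The plasma-side list was split, with 5 genes higher and 8 lower in fat of 16 tested under each diet, and 3 higher and 9 lower with centring. Of the 16, Vldlr passed the filter only through fat and Ces5 only through liver under each diet, so the direction of both was fixed by that choice. The genes lower in fat included Apoc2 (-7.85 in LA rats and -7.43 in PF rats). Those higher in fat included Cd36, a fatty acid transporter (3.36 and 3.37).

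The genes whose pattern over the 16 libraries was most like that of each main member were found by the root mean square difference of centred log2(FPKM + 1) values, among 10287 genes. This measure spans both tissues, so a gap of like size between fat and liver weighs heavily. It does not show shared variation within a tissue or with diet. For Lpl they were Lep (0.39), S100b (0.43) and Gsn (0.52). For Lipe they were Col5a3 (0.15), Pi16 (0.20) and Sparc (0.22). For Lipc they were Proc (0.15), Cyp2a2 (0.16) and C8a (0.16), and for Angptl4 Lrp10 (0.38), Siglec1 (0.40) and Slc29a3 (0.41). Proc, Cyp2a2 and C8a were lower in LA liver on the mean, as Lipc was. They were picked for likeness over these same libraries, so this is no support for the Lipc difference. Their means were 205 ± 20.9, 235 ± 19.2 and 214 ± 9.96 FPKM in LA liver. In PF liver they were 267 ± 26.8, 334 ± 50.9 and 256 ± 12.0 FPKM (SD, n = 4 each). Lep, the gene nearest to Lpl, was level in fat, at 1624 ± 389 FPKM under LA and 1610 ± 343 FPKM under PF, where Lpl was lower under LA.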

How the data were processed

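Epididymal fat and liver of 8 ZDF rats gave 16 RNA libraries, 4 for each tissue and feed. Libraries came, per the labels' protocols, from a TruSeq RNA V2 kit. It does not mark strand, and so a gene and an overlapping antisense gene cannot be told apart. CASAVA 1.8.2, TopHat and Cuffdiff were used, per the submitters' processing notes. The build, annotation and tool settings behind the values were not given in the sources used here. FPKM values, 1 per gene symbol and library, were deposited by the authors, per the file headers. No counts come with them, and read totals are unknown. Some values listed at 0 may be failed estimates. Steps between low values gave fragments, called whole within 0.1.

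The test was limma (version 3.58.1, R 4.3.3) on log2(FPKM + 1), fitted with a trend of variance on level. Genes entered where 4 or more libraries of a fit reached 1 FPKM, and p values were adjusted over all of them by the Benjamini-Hochberg method. A call needed an adjusted p under 0.05, with a difference over 1 as well where tissues were compared. This scale understates the change of low genes. Fat and liver came from the same rats, but which libraries share a rat is not given, so libraries were treated as independent. The fit was tested on simulated data. It recovered 58% of differences of 0.5 between diets in liver, 40% in fat and 32% for the difference of diet effects. For differences of 1 it recovered 97%, 83% and 88%. Smaller differences were thus often missed. False calls numbered 12, 16 and 19, in each case a larger share of the simulated calls than the 0.05 threshold aims for. The simulated data held more changed genes than the 2 called in fat and the 46 called for the difference of diet effects. Recovery in these 2 comparisons may therefore be overstated for the real data.

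The members and lists were chosen with earlier results of these data known. The text names all 9 members, the list genes called or of smallest p in a diet comparison, a preset of list genes, and the 3 genes most like each of 4 members, in part. Of 71 pathway list genes, 63 were matched, 9 of them by an older symbol, and 8 were not used here. A further gene of the plasma-side list is not reported here and is left out of the list counts. Promoter sequences came from RefSeq, GRCr8. The alternatives tried were each library left out, no trend, no filter, a lower pseudocount (0.1), a block for replicate numbers, centring on library medians, a single model of all 16 libraries, and a threshold of 0.1 on the adjusted p. Figures were drawn with matplotlib 3.10.9.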

Additional observations from a re-analysis of the deposited data

Results flagged for a closer look

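In 51 groups of 4 libraries checked for a library far from the other three, 4 were marked, and chance marks about 1 in 20 groups. Lpl in PF liver replicate 4 stood at 0.595 FPKM, with the other three at 0.263 to 0.303 FPKM. Lipg was listed at 0.0481 FPKM in LA liver replicate 1 and at 0.0530 FPKM in PF liver replicate 4, with the other libraries of each group listed at 0, and each value is worth about 1 fragment. Lipe in PF fat replicate 4 stood at 224 FPKM, with the other three at 260 to 266 FPKM. The same library had the lowest Angptl4 of the fat libraries (51.0 FPKM) and the highest Lpl (4005 FPKM). It also had by far the highest sum of epididymal and testicular cell markers (9.81 FPKM). The part of such cells in its values was not tested.

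Vldlr was called for the difference of diet effects, at -0.65 for fat minus liver (adjusted p = 0.0362 by limma). Its liver values were at most 0.609 FPKM, below the filter. The call held in 3 of the 16 fits that left out 1 library.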

How the results depend on the processing

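Over the alternatives run, no called member of the tissue comparisons changed direction. Gpihbp1 and Lpl, and Lipe in PF rats, dropped below the filter whenever a fat library was left out, so the number of members called between tissues ranged from 4 to 6 in LA rats and from 4 to 7 in PF rats. Median centring ended the Angptl4 calls (0.82 in LA rats and 0.98 in PF rats) and made Lipa called in LA rats (-1.12). It also moved the genes called to 4277 in LA rats (2292 higher in fat and 1985 lower) and 4317 in PF rats (2253 and 2064), beside 5372 (4161 and 1211) and 5447 (4174 and 1273) as deposited. Members called between diets in liver were 2, Lipc and Mgll, at an adjusted p under 0.1 and also with a replicate block (adjusted p = 0.0405 and 0.0385 by limma), and 0 to 1 with 1 library left out. The block also ended the calls of Apoc2 (adjusted p = 0.0992) and Vldlr (0.117), as did the fit with no filter (0.0988 and 0.0564) and, for Apoc2, the model of all 16 libraries (0.571). For the difference of diet effects between tissues 0 to 1 members were called with 1 library left out. With 1 library left out, 5 values that were not called took either sign. The diet difference in fat ranged from -0.015 to 0.089 for Lipe and from -0.099 to 0.038 for Lmf1. The difference between tissues of Lmf1 in PF rats ranged from -0.13 to 0.0097. The difference of diet effects between tissues ranged from -0.27 to 0.20 for Lipc and from -0.50 to 0.047 for Angptl4. The causes were not tested. The labels do not pair the replicate numbers, so the block has no basis in the design. Deviations of same-numbered libraries correlated at -0.225 to 0.291 between fat and liver of the same diet. Between the diets of a tissue, which come from different rats, they correlated at -0.426 to 0.152. PF fat replicates 2 and 3 correlated best with the liver library of their own number, and the other fat libraries with a liver library of another number. Genes called in liver were 208 without LA replicate 2, 267 without PF replicate 1 and 848 at an adjusted p under 0.1, beside 435. In fat 0 to 2 were called with 1 library left out, 1 with a pseudocount of 0.1, 1 with the block and 7 with all 16 libraries in one model. For the difference of diet effects 22 were called with no filter, 94 at an adjusted p under 0.1 and 19 to 60 with 1 library left out, beside 46. Unknown read totals limit Lipg, and Lpl and Gpihbp1 in liver.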
